A study of Mus musculus with 3 samples.

Results

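The genes described here encode the sensors by which macrophages recognise microbes, with their co-receptors, adaptors and kinases. They were a list of 37 genes: 10 Toll-like receptors, 4 co-receptors, 5 adaptors, 4 IRAK kinases, 4 kinases or scaffolds of the IKK and TBK1 group, 5 NOD-like receptors or partners, a lectin receptor with its adaptor and 3 RNA helicases. Members were the listed genes with at least 1 probe set that the platform annotation assigns to a single symbol. There were 26 such genes, read by 45 probe sets, out of 12393 genes in the series. The other 11 were not analysed here: Tlr13, Ticam1, Ticam2, Irak2, Irak3, Irak4, Nod1, Nod2, Ripk2, Card9 and Ddx58.

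The study followed osteoclast formation in bone marrow cells of C57/BL6 mice. The cells had first been grown with human M-CSF at 50 ng/ml over 3 days, which yields macrophages, and then received human RANKL at 150 ng/ml. Cells taken at 0 h were labelled precursors, those at 24 h differentiating precursors and those at 72 h osteoclasts, with 1 Affymetrix array each. All 3 groups had M-CSF, and no culture was kept without RANKL beyond 0 h, so RANKL and time in culture cannot be told apart.

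Toll-like receptors are membrane proteins that bind microbial lipids, proteins or nucleic acids, some at the cell surface and others in endosomes. Most signal through the adaptor MyD88 to IRAK kinases and then to the IKK complex, which frees NF-kB, whereas the TBK1 and IKK-epsilon kinases lead to interferon genes. RANK, the receptor of RANKL, also uses the IKK complex and NF-kB, so parts of the machinery serve in macrophages and osteoclasts alike.

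Values are scaled MAS5 signals: each array was centred on its own median, and 29.6 signal units, the 40th percentile of all scaled values, served as a floor below which signals were not ordered. A difference of at least 2-fold was called. Each time has a single array, so differences have no replicate check and no test was made. The error given is technical, the disagreement between 2 probe sets of a gene. It came to a factor of 1.33 when 24 h was set against 0 h. The factor was 1.41 for 72 h with 0 h as the baseline, and 1.28 with 24 h as the baseline. It leaves out variation between cultures. Levels of different genes are not compared, because probe sets differ in brightness.

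Labels were checked against marker genes. All 5 osteoclast markers (Acp5, Ctsk, Mmp9, Calcr and Ocstamp) were at least 2-fold higher at 72 h than at 0 h, and of 5 macrophage genes 3 were lower by the same rule (Adgre1, Fcgr1 and Mertk), Cd68 was 2.34-fold higher and Csf1r was within 2-fold. The macrophage genes summed to 14670, 8987 and 13640 after 0, 24 and 72 h. Markers of neutrophils and their precursors also moved: the signals of 8 genes summed to 17910, 12660 and 1306 after 0, 24 and 72 h, and all 8 were called lower at 72 h against 0 h. B cell, T and NK cell markers had 1 and 0 genes above the floor at 0 h and none later, and of 4 dendritic cell markers 2 were above it at each time. Neutrophils also carry several of the receptors below. Their part in the results was not tested, and fewer cells of a type and less RNA per cell cannot be told apart in these bulk samples.

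After 24 h of RANKL, 10 of the 26 innate sensing genes were at least 2-fold lower than at 0 h and 0 were higher. The genes called lower were 6 Toll-like receptors (Tlr1, Tlr2, Tlr4, Tlr6, Tlr7 and Tlr8), the co-receptor genes Cd14 and Ly86, the kinase gene Ikbke and the lectin receptor gene Clec7a. Of all 8439 genes measured in that comparison, 9.22% were called lower and 13.2% higher. The median log2 difference was -0.62 over the innate sensing genes and 0.12 over all measured genes. All 26 were above the floor at 0 h, against 7990 genes in the series, which leaves them more room to be called lower than a gene that starts under the floor. On the deposited scale without centring, 7 were lower and 1 higher, beside 3.71% lower and 39.0% higher among all genes measured on that scale, whose median was 0.78.

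At 72 h against 0 h, 13 of the 26 genes were called lower and 0 higher, beside 12.8% lower and 12.5% higher among all 8558 measured genes. The 13 were Tlr1, Tlr2, Tlr3, Tlr6, Tlr7, Tlr8, Cd14, Ly86, Myd88, Pycard, Ikbke, Clec7a and Ifih1. The median was -1.0 over the innate sensing genes and -0.01 over all genes. On the deposited scale 6 were lower and 4 higher, the 4 being Tirap, Tollip, Ikbkg and Ly96, beside 5.33% lower and 34.95% higher among all genes on that scale (median 0.68). The comparison shares the 0 h array with the one before it, so the lists are not independent of each other. The neutrophil marker sum was 13.7 times lower at 72 h and 1.42 times lower at 24 h than at 0 h.

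From 24 to 72 h the genes moved little as a group. Of 24 measured, 3 were called lower (Ly86, Pycard and Ifih1) and Tollip alone was called higher, beside 10.0% lower and 6.92% higher among all 8391 genes. Their median was -0.04, against -0.14 over all genes. With quantile or trimmed mean scaling the calls were 2 lower and 2 higher, and with scaling to hybridization controls 4 lower and 0 higher. Among all genes, 8.2% were lower and 7.6% higher with quantile, and 8.7% and 7.8% with trimmed mean scaling. With hybridization controls 13.05% of all genes were lower and 5.8% higher.

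**Figure D1:**
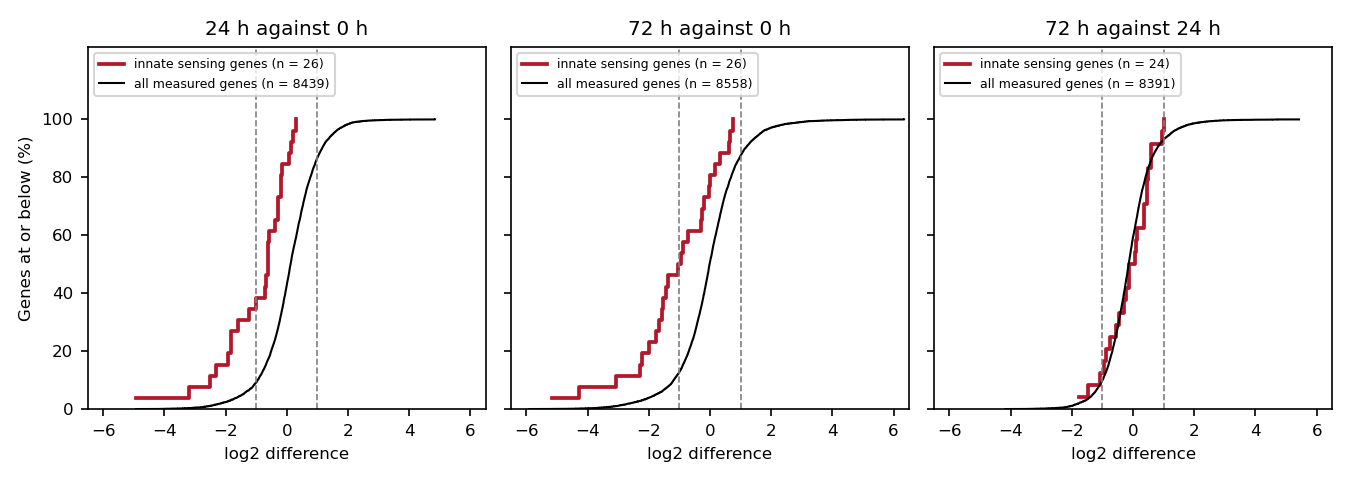
Cumulative share of genes (vertical, percent) at or below each log2 difference (horizontal) for the innate sensing genes (red) and all measured genes (black), with dashed lines at the 2-fold bounds. The red curve lies left of the black one in both comparisons against 0 h, with medians of -0.62 and -1.0, and close to it for 72 h against 24 h.

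Among the cell surface receptors, Tlr2, which recognises bacterial lipoproteins, and its partners were lower at both later times. Tlr2 had scaled signals of 943.9 at 0 h, 402.6 at 24 h and 237.4 at 72 h. Its signal was 2.34-fold lower at 24 h and 3.98-fold lower at 72 h than at 0 h. TLR2 works as a heterodimer with TLR1 or TLR6, which decide whether triacylated or diacylated lipoproteins are bound. Tlr1 had 182.3, 36.6 and 39.4 at 0, 24 and 72 h, 4.99-fold lower at 24 h and 4.62-fold lower at 72 h. Tlr6 had 182.9, 51.5 and 37.4, or 3.55-fold and 4.90-fold lower. For each of the 3 genes the 0 h array was the highest, and the later signals of Tlr1 and Tlr6 lay close to the floor. Raising the floor to the 60th percentile ended both calls of Tlr1 (log2 -0.98) and of Tlr6 (-0.98), and the 24 h call of Tlr2 was lost on the deposited scale (-0.50). Tlr1 and Tlr6 are next to each other on chromosome 5 and encode closely related proteins. Whether their single probe sets also bind each other's transcript was not tested.

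Tlr4, the receptor for bacterial lipopolysaccharide, sat at the edge of the 2-fold rule. Its signals were 160.8 at 0 h, 79.5 at 24 h and 87.1 at 72 h, 2.02-fold lower at 24 h and 1.85-fold lower at 72 h. A second probe set of Tlr4 read 133.4, 43.5 and 70.8, which is 3.07-fold and 1.88-fold lower. On the deposited scale the 24 h log2 difference of Tlr4 was -0.29, and its call was lost. The call was also lost with scaling to hybridization controls (-0.94) and with the 60th percentile as floor (-0.80). Tlr5, the receptor for bacterial flagellin, read 35.8 at 0 h and then lay under the floor, so no more than a 1.21-fold bound can be given.

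Of the endosomal receptors, Tlr7, a sensor of single-stranded RNA, and Tlr8 were lower by 24 h. Tlr7 had 387.7, 67.5 and 46.4 at 0, 24 and 72 h, 5.74-fold lower at 24 h and 8.36-fold lower at 72 h. Both of its other probe sets were above the floor at 0 h, at 40.6 and 47.5, and under it at 24 and 72 h. Tlr8 had 129.6, 34.3 and 48.2, or 3.78-fold lower at 24 h and 2.69-fold lower at 72 h. The later Tlr8 signals lay near the floor: with the 60th percentile as floor both calls were lost (log2 -0.49), and the 72 h call was lost on the deposited scale (-0.65). Tlr7 and Tlr8 are neighbours on the X chromosome, as Tlr1 and Tlr6 are on chromosome 5.

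The remaining endosomal receptors differed from these in time or stayed near the floor. Tlr3, a sensor of double-stranded RNA, had 60.9, 54.5 and 8.93. It was 1.12-fold below 0 h at 24 h, within the technical error, and at least 2.06-fold lower at 72 h. The other Tlr3 probe set was under the floor on all 3 arrays, and averaging both ended the call, as did the deposited scale (log2 -0.55). Tlr9, the sensor of unmethylated CpG DNA, read 33.8, 27.6 and 38.1 and stayed within 2-fold. Unc93b1, which escorts endosomal Toll-like receptors and is no member, had 1160, 503.7 and 349.5, 2.30-fold lower at 24 h and 3.32-fold lower at 72 h.

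**Figure D2:**
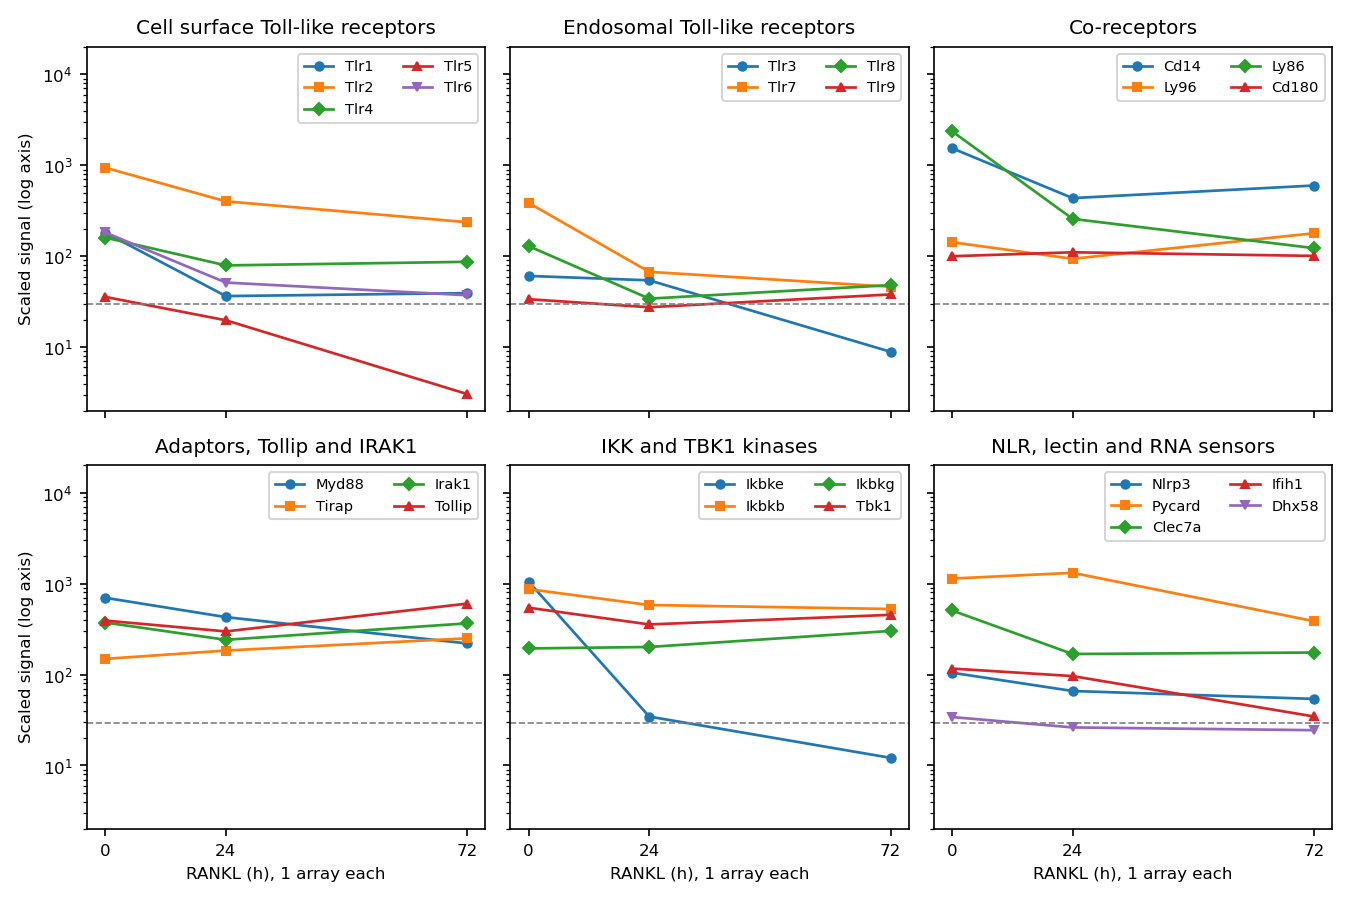
Scaled signal (vertical, log axis) of the 26 innate sensing genes after 0, 24 and 72 h of RANKL (horizontal), each point 1 array and each gene by its representative probe set; the dashed line is the floor of 29.6. Ikbke, Ly86 and Tlr7 drop most by 24 h, and Cd180 stays level. After 24 h Pycard and Ifih1 drop most among genes above the floor at every time, while Tlr3, Tlr5 and Ikbke also drop and end under the floor.

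The co-receptors differed in the size of their changes. CD14 passes lipopolysaccharide to the complex of TLR4 and MD-2, the product of Ly96. Cd14 had 1544, 436.6 and 600.3 at 0, 24 and 72 h, 3.54-fold lower at 24 h and 2.57-fold lower at 72 h. The 72 h call of Cd14 was lost on the deposited scale (log2 -0.59). Ly96 had 143.1, 94.0 and 179.4, within 2-fold in all 3 comparisons, at 1.52-fold below 0 h after 24 h and 1.25-fold above it after 72 h. Cd14 was thus called lower at both later times, while the 72 h difference of Ly96 from 0 h was smaller than the technical error.

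A wider gap separated the parts of a related complex. MD-1, the product of Ly86, binds RP105, the product of Cd180, a Toll-like receptor homologue that lacks the intracellular signalling domain and restrains TLR4 in myeloid cells. Ly86 had 2372 at 0 h, 258.1 at 24 h and 123.1 at 72 h. It was 9.19-fold lower at 24 h and 19.3-fold lower at 72 h, rank 30 of 8439 and rank 15 of 8558 from the lowest difference. From 24 to 72 h it was 2.10-fold lower, a call lost with quantile (log2 -0.94) and trimmed mean scaling (-1.0). Cd180 had 100.3, 110.8 and 101.1, with differences of 1.11-fold and 1.01-fold, smaller than the technical error. Each of these 2 genes has 1 probe set, so neither value has a check within the array.

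The promoter windows of Ly86 and Cd180 are shown because these partners moved so differently. Each window runs from 250 bases before to 50 bases after the RefSeq gene start in GRCm38.p6, 5′ to 3′ on the gene's strand. Ly86 lies at chr13:37345095-37345394 on the plus strand and the first of 2 Cd180 windows at chr13:102693297-102693596 on the plus strand. Capitals mark a match to GAAANNGAA, the core of the interferon response element, in Ly86.
Ly86: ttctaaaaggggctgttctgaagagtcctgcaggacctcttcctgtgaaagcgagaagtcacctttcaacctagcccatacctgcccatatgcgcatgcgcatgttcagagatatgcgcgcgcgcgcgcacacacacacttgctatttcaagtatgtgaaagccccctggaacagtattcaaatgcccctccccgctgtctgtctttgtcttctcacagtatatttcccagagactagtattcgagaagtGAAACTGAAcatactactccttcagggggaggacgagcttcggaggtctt
Cd180: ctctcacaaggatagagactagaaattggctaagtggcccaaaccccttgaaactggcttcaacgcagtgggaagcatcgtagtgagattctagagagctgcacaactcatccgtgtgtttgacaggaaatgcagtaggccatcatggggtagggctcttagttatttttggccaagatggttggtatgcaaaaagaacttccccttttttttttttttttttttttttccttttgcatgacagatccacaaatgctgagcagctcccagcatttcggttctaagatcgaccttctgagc

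The adaptors, which join receptors to kinases, split as well. Myd88, the adaptor of most Toll-like receptors and of the IL-1 receptor, had 698.0 at 0 h, 427.6 at 24 h and 219.6 at 72 h. It was 1.63-fold below 0 h at 24 h, under the 2-fold line, and 3.18-fold lower at 72 h. Its 72 h log2 difference was -0.90 on the deposited scale, under the line. Tirap, which brings MyD88 to TLR2 and TLR4 at the membrane, had 148.6, 183.5 and 249.9, within 2-fold, with the highest signal at 72 h (1.68-fold above 0 h). A second Tirap probe set read 17.3, 30.1 and 29.8, near or under the floor. So by their representative probe sets Myd88 and Tirap, which act side by side, had their highest signals at opposite ends of the course.

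Tollip, an adaptor that dampens IL-1 and Toll-like receptor signalling, was the single gene called higher in any comparison. It had 392.0, 297.6 and 601.7 at 0, 24 and 72 h, 2.02-fold higher at 72 h than at 24 h and 1.53-fold above 0 h at 72 h. A second Tollip probe set read 59.5, 68.8 and 169.1, which is 2.46-fold higher at 72 h than at 24 h and 2.84-fold higher than at 0 h. With scaling to hybridization controls the 72 h against 24 h log2 difference was 0.89, under the line. Irak1, the kinase next to MyD88, had 373.0, 240.7 and 365.2 and stayed within 2-fold in all 3 comparisons, as did its 3 other probe sets.

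Among the IKK-related kinases, Ikbke had the largest 24 h difference of the list. IKK-epsilon, the product of Ikbke, phosphorylates interferon regulatory factors and is induced by NF-kB in macrophages. Ikbke had 1051 at 0 h, 34.5 at 24 h and 12.1 at 72 h. Its 24 h signal was 30.5-fold below that of 0 h, a log2 difference of -4.93 with a technical error of 0.41. That was rank 1 of 8439 from the lowest, but rank 2 with the 20th percentile as floor, 8 with no floor and 9 with the 60th percentile, and the 24 h signal lies within the technical error of the floor. At 72 h it lay under the floor, at least 35.6-fold lower. Ikbke was called lower in both comparisons against 0 h under all 9 alternatives, with log2 differences from -5.13 to -3.51 at 24 h. The smallest came from raising the floor to the 60th percentile. Ikbke rests on 1 probe set.

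Its closest relative, Tbk1, stayed within 2-fold by its representative probe set, which is of a type that can match several transcripts. Tbk1 had 542.5, 355.2 and 452.9 at 0, 24 and 72 h, 1.53-fold below 0 h at 24 h and 1.20-fold below at 72 h. A second Tbk1 probe set read 258.3, 94.0 and 153.0, 2.75-fold lower at 24 h and 1.69-fold below 0 h at 72 h. Tbk1 was called lower at 24 h with probe sets averaged (log2 -1.03). The same held without probe sets that can match several transcripts (-1.46). The 72 h difference of the representative probe set was smaller than the technical error. On the deposited scale the representative Tbk1 probe set was above its 0 h value at 72 h.

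Windows of the same kind are shown for Ikbke and Tbk1, since Ikbke was called lower at both later times and its relative Tbk1, by its representative probe set, was not. Ikbke lies at chr1:131279514-131279813 and Tbk1 at chr10:121586745-121587044, each on the minus strand. Capitals mark GAGGAA, the core motif of the myeloid factor PU.1, found once in the Ikbke window and not in that of Tbk1.
Ikbke: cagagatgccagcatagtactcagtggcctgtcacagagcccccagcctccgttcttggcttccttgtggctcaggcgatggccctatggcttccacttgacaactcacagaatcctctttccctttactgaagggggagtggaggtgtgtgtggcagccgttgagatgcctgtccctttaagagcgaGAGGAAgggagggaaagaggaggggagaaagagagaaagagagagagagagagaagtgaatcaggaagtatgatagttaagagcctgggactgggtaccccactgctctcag
Tbk1: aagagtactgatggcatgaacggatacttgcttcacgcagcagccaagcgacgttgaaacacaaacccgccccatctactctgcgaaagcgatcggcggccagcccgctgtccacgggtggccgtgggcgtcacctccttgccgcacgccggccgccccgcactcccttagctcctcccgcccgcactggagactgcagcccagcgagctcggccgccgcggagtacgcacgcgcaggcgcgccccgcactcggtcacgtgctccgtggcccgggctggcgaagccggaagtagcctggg

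The subunits of the canonical IKK complex, which RANK also uses, stayed within 2-fold by their representative probe sets. Ikbkb, the catalytic IKK-beta, had 868.4, 580.6 and 525.4 at 0, 24 and 72 h, 1.5-fold and 1.65-fold below 0 h, whereas 1 of its other probe sets was 1.41-fold above 0 h at 72 h. Ikbkg, the regulatory scaffold NEMO, had 193.5, 200.8 and 301.3, 1.56-fold above 0 h at 72 h. The 3 other Ikbkg probe sets were 2.57-fold, 2.44-fold and 2.82-fold higher at 72 h than at 0 h. All 4 Ikbkg probe sets were above their 0 h signal at 72 h by more than the technical error, and with probe sets averaged the log2 difference was 1.20.

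Of the inflammasome genes among the members, Pycard was called lower at 72 h and Nlrp3 was not called. Pycard, the adaptor ASC that links sensors to caspase-1, had 1134 at 0 h, 1312 at 24 h and 386.2 at 72 h. It was 1.16-fold above 0 h at 24 h, 3.40-fold lower at 72 h than at 24 h and 2.94-fold lower at 72 h than at 0 h. Its other probe set lay under the floor on all 3 arrays, at 1.24, 7.55 and 12.3, and averaging it in turned the 72 h against 0 h log2 difference to 0.88 and ended the call against 24 h (-0.53). The 72 h against 0 h difference was -0.78 on the deposited scale, under the line. Nlrp3, a sensor of cell damage that uses ASC, had 104.7, 65.9 and 54.0, 1.94-fold below 0 h at 72 h, just inside the line. It passed the line with quantile (log2 -1.01), trimmed mean (-1.08) and hybridization control scaling (-1.01). All 8 neutrophil markers were also called lower at 72 h against 24 h, and their part in the Pycard value was not tested.

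Clec7a encodes dectin-1, the receptor for fungal beta-glucan. Its signals were 506.0, 168.1 and 174.5 at 0, 24 and 72 h, 3.01-fold lower at 24 h and 2.90-fold lower at 72 h. Like Tlr1 and Cd14, it was low by 24 h and stayed within 2-fold afterwards. Both calls were lost on the deposited scale (log2 -0.86 at 24 h and -0.76 at 72 h).

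Of the RNA helicase sensors, Ifih1, which encodes the double-stranded RNA sensor MDA5, was lower late. It had 116.3, 96.1 and 34.6 at 0, 24 and 72 h, 2.78-fold lower at 72 h than at 24 h and 3.36-fold lower than at 0 h. The call against 0 h was lost on the deposited scale (log2 -0.98), and with the 60th percentile as floor Ifih1 kept no call (-0.06 against 24 h and -0.33 against 0 h). Dhx58, which encodes LGP2, a regulator of MDA5 and RIG-I, read 34.1, 26.2 and 24.4, near or under the floor. Another Dhx58 probe set had 76.6, 46.3 and 4.61, at least 2.59-fold lower at 72 h than at 0 h. Ifih1 and this Dhx58 probe set were each lowest at 72 h.

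**Figure D3:**
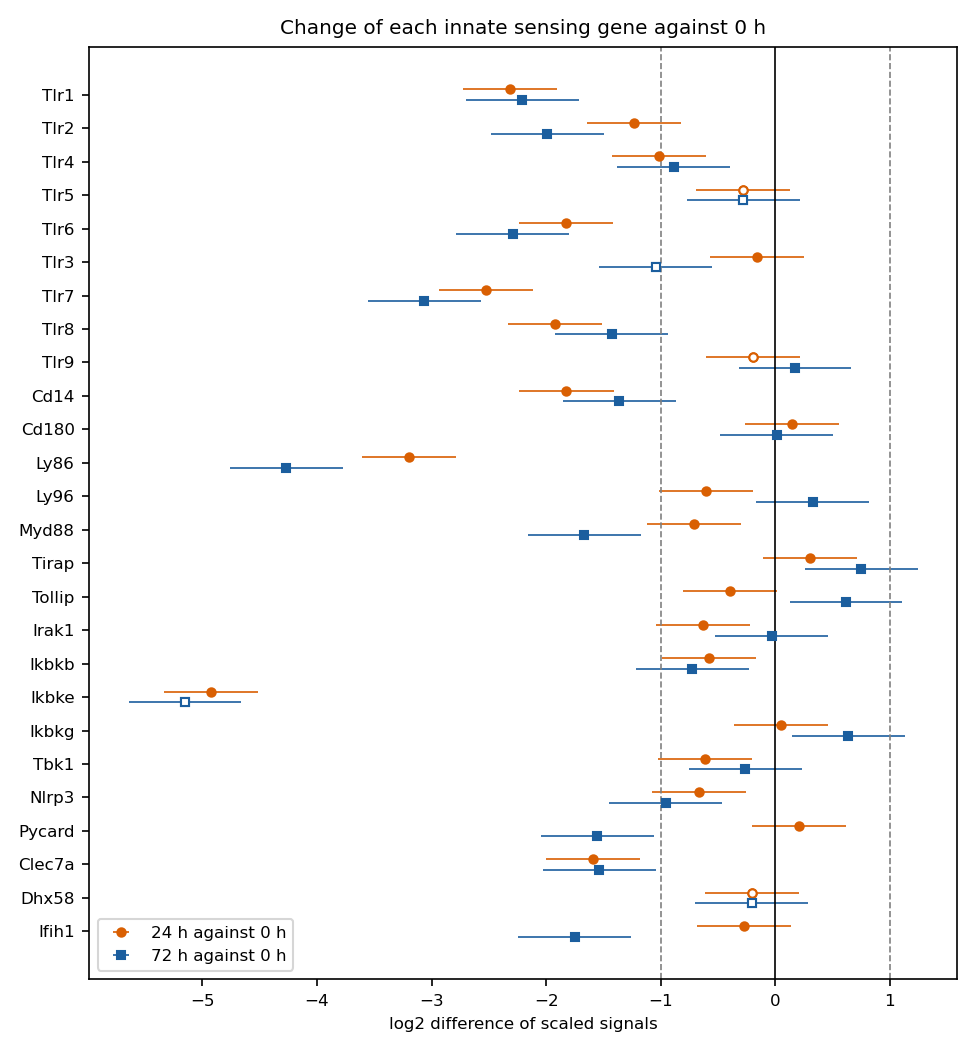
Log2 difference (horizontal) of each innate sensing gene at 24 h (orange circles) and 72 h (blue squares) against 0 h, with bars for the technical error of 0.41 and 0.49 and dashed lines at 2-fold; open symbols are bounds set by the floor. Ikbke and Ly86 lie farthest to the left, and 0 genes pass the right-hand line.

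Promoter windows were used for 20 of the 26 members, in 30 windows. Windows on a single chromosome were left out of the member set but kept in the shares over all genes. Of the 13 genes called lower at 72 h against 0 h, Cd14 and Tlr7 had no window in the member set. GAAANNGAA was found on either strand in the windows of 5 of the 20 genes, against 9.76% of 27025 genes in the RefSeq table. The 5 were Ifih1, Ly86, Myd88, Tlr6 and Tlr8. All were among the 11 genes with a window used here that were called lower at 72 h against 0 h, and 0 of the other 9 had a match. GAGGAA was found in 9 of 20, of which 6 of the 11 lower genes and 3 of the other 9, against 31.2% of all genes. The kappaB consensus was found in 4 of 20 (Irak1, Nlrp3, Tlr2 and Tlr3), of which 2 of the 11 lower genes and 2 of the other 9, against 9.55% of all genes. These matches describe letters in a window, and genes with several windows had more chances of a match.

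The stretches around GAAANNGAA are given with the match in capitals, on the gene's strand, so that a match on the opposite strand reads TTCNNTTTC. They are shown to let the flanking bases be compared. The Ifih1 stretches lie at chr2:62646351-62646375 and chr2:62646207-62646231, minus strand, from 112 bases before and 33 bases into the transcript. That of Myd88 lies at chr9:119340042-119340066, minus strand, that of Tlr6 at chr5:64959259-64959289, minus strand, where 2 matches overlap, and that of Tlr8 at chrX:167264380-167264404, minus strand. In Ly86 the match starts at base 1 of the transcript.
Ifih1 upstream: aattcgcgTTCCCTTTCctgtttct
Ifih1 downstream: agagaatcGAAACAGAAaccgatct
Myd88: gcttctcgGAAAGCGAAagaaggag
Tlr6: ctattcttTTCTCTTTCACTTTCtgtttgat
Tlr8: cctctgaaTTCAGTTTCgaaatttt

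Other genes of the pathway were followed in 3 lists, to be read beside the shares over all genes: 12.8% lower and 12.5% higher at 72 h, and 9.22% lower and 13.2% higher at 24 h, each against 0 h. Of 20 measured signalling and accessory genes outside the members, 5 were lower and 1 higher at 72 h against 0 h (median -0.58). Traf6, the ubiquitin ligase used by both Toll-like receptors and RANK, was the one that was higher. It had 37.2, 64.4 and 134.1 at 0, 24 and 72 h, 3.60-fold higher at 72 h than at 0 h from a start near the floor. Sting1, the adaptor of cytosolic DNA sensing, had 253.6, 116.7 and 47.9, 5.29-fold lower at 72 h. Irf5 and Irf7, transcription factors activated downstream of these receptors, were 3.62-fold and 3.50-fold lower at 72 h than at 0 h. At 24 h against 0 h, 4 of the 20 genes were lower and 0 higher, with a median of -0.43.

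Of 12 measured genes of inflammasomes and other sensors, 9 were lower at 72 h against 0 h and 0 higher (median -1.67), and at 24 h 6 were lower and 0 higher (median -1.06). Il1b, the cytokine that caspase-1 matures, had 215.1, 50.6 and 32.0 at 0, 24 and 72 h and was 6.72-fold lower at 72 h. Clec4e, the lectin receptor Mincle, was 6.69-fold lower, and Naip5, a sensor of flagellin, at least 4.74-fold lower, both at 72 h against 0 h. Casp4, Naip2 and Nlrx1 were within 2-fold of 0 h at both later times, and Naip2 was 2.14-fold lower at 72 h than at 24 h.

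Among genes that Toll-like receptors classically induce, more were called lower than higher at both later times. Of 14 measured at 72 h against 0 h, 7 were lower and 2 higher (median -1.03), and of 15 at 24 h, 5 were lower and 0 higher (median -0.62). The chemokine genes Ccl3 and Cxcl2 were at least 7.87-fold and at least 7.13-fold lower at 72 h than at 0 h, along with Il1b. Tnfaip3, which encodes the NF-kB feedback inhibitor A20, had 35.9, 64.8 and 230.7, or 6.42-fold higher, and Ptgs2, cyclooxygenase 2, was 2.48-fold higher. Il6, Il12b, Nos2 and Ifnb1 were under the floor on all 3 arrays.

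**Figure D4:**
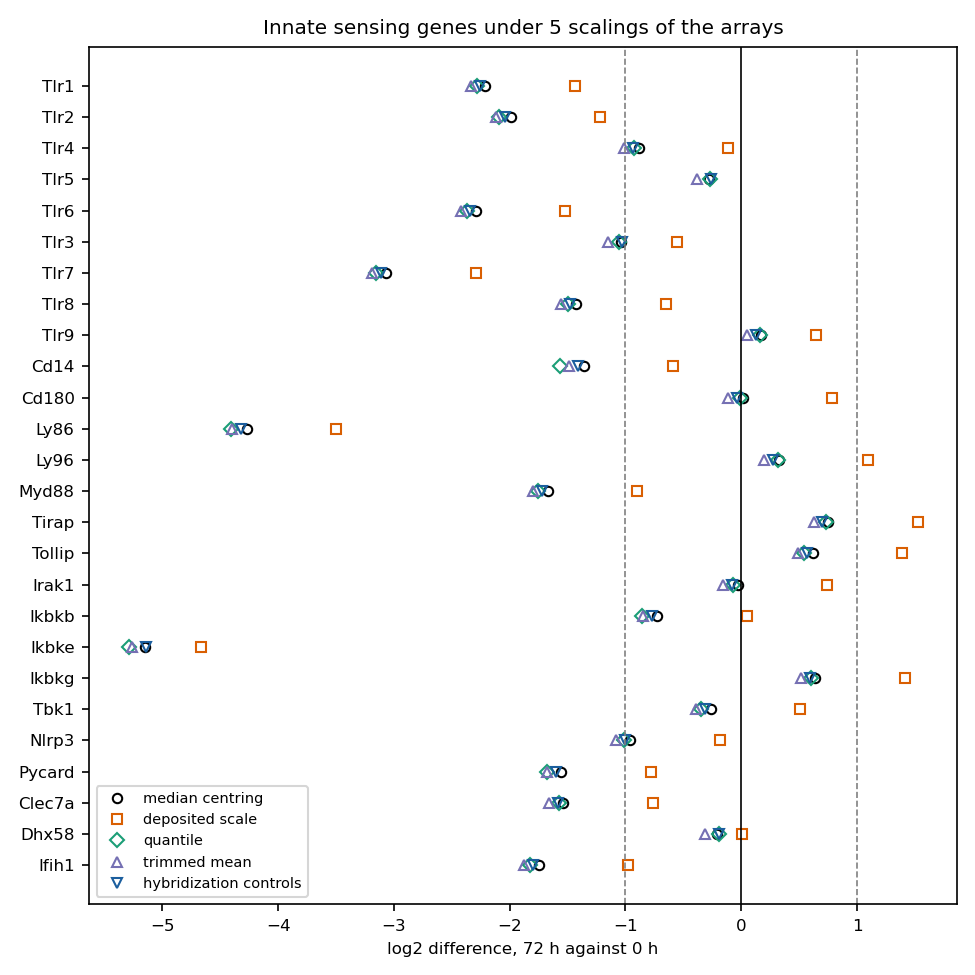
Log2 difference at 72 h against 0 h (horizontal) of each innate sensing gene under 5 ways of scaling the arrays; a gene under the floor at both times has no symbol (Tlr5 on the deposited scale). The deposited scale lies to the right of the other 4 for every gene with a symbol, and all 13 genes called lower by median centring stay below 0 under each scaling.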

How the data were processed

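The table deposited by the authors holds linear array intensity for each probe set, made with MAS5 per the submitters' processing notes, its version not stated there. Of 22690 probe sets, 64 were controls, and 20380 of the other 22626 had a single gene symbol in the platform annotation of 2016, 691 several and 1555 none. All 26 member symbols matched RefSeq (GRCm38.p6, names, gene order and promoter windows only) by gene identifier.

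Array medians were 36.7, 60.9 and 62.7 at 0, 24 and 72 h, a log2 shift of 0.73 and 0.77 against 0 h. Log2 signals were therefore centred on each array's median of gene probe sets, put on the mean scale of the 3 arrays and floored at the 40th percentile (4.89 on the log2 scale). The single-symbol probe set of highest mean log2 signal stood for its gene. A gene counted as measured if either array of a pair exceeded the floor, and was called at a log2 difference of 1. A fold with 1 side at the floor is written "at least". The technical error is the SD of the difference between 2 probe sets of a gene, divided by the square root of 2, over 2727, 2702 and 2785 genes for 24 h against 0 h, 72 h against 0 h and 72 h against 24 h. Precision is limited by how few arrays there are. The members, gene lists and settings were chosen with earlier results of these data known. Every member above the floor on at least 1 array is named with its signals; from each other list the 3 largest called changes each way at 72 h against 0 h are named, and genes given beyond these (Unc93b1, Casp4, Naip2, Nlrx1 and those under the floor) were chosen after their values were seen. The steps were tested on simulated data and run in Python 3.11.15 with pandas 2.3.3 and numpy 2.4.6. No protein sequences were used.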

Additional observations from a re-analysis of the deposited data

How the results depend on the processing

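The 9 alternatives were 4 other scalings, 3 other floors and 2 other choices of probe set. Of 660 values of single genes under them, 610 kept their side of the 2-fold line, 25 lost a call, 24 gained one and 1 reversed: Pycard at 72 h against 0 h, with a log2 difference of 0.88 when its probe sets were averaged. A gene not measured under an alternative gave no value there and is not among the 660. Tlr3, called lower at 72 h against 0 h, had values under 7 of the 9 alternatives. Part of the 610 was fixed in advance. A gene with 1 probe set cannot change under another choice of probe set, nor a bright gene under another floor. On the deposited scale, the numbers of genes higher were 1 at 24 h and 4 at 72 h against 0 h, 6 were lower at 72 h, and the 24 h median was 0.0662. With probe sets averaged, 1 gene was higher at 24 h (Pycard) and 2 at 72 h (Ikbkg and Tollip) against 0 h. The shares over all genes were 12.9% and 13.0%. Under a floor at the 60th percentile, 22 of the 26 genes were measured. Of these, 6 were lower at 24 h and 8 at 72 h against 0 h, beside 8.4% and 11.3% of all genes. A higher floor shortens the differences of dim genes, and Tlr3, Tlr5, Tlr9 and Dhx58 were not measured under it. For 72 h against 24 h, 2 genes were higher with quantile and 2 with trimmed mean scaling and 0 with hybridization controls. The shares over all genes were 7.6%, 7.8% and 5.8%. In the same comparison 6 were lower under a floor at the 20th percentile and 6 with no floor, beside 11.66% and 15.3% of all genes. The median, -0.04, turned to 0.028 with quantile, 0.0325 with the trimmed mean, 0.0545 under the 60th percentile floor and 0.025 with probe sets averaged, so it has no settled sign. The cause was not tested for the other settings. No paired analysis was possible because each time has 1 array. Signals within about the technical error of the floor, such as those of Tlr5, Tlr9 and Dhx58, set no order.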

Other observations

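Probe sets of the same gene were compared where at least 2 were measured. For 72 h against 0 h, 8 of 9 genes had probe sets that all moved in the same direction, for 24 h against 0 h 5 of 9, and for 72 h against 24 h 4 of 7. The exception for 72 h against 0 h was Ikbkb. Of the 4 Ikbkg probe sets, 1 was 2.01-fold higher at 24 h than at 0 h while the others differed by factors of 1.04 to 1.48. An early and a late set of differences can be read from the same values, among the genes called lower at 72 h against 0 h. Tlr1, Tlr2, Tlr6, Tlr7, Tlr8, Cd14, Ly86, Clec7a and Ikbke had most of their difference by 24 h. For Pycard, Ifih1 and Tlr3 most of it came after 24 h. Myd88 moved by log2 -0.71 up to 24 h and -0.96 after it, but -0.93 and -0.83 with quantile scaling. With the trimmed mean the values were -0.91 and -0.89, so its place is not settled. On the deposited scale Tlr2 moved more after 24 h (-0.72) than before (-0.50). With the 60th percentile as floor Ifih1 moved more before 24 h (-0.28) than after (-0.06). The 24 h array enters both intervals, so an error on it would move them in opposite directions.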
